A study of Mus musculus with 48 samples.

Results

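The axon guidance ligands and receptors described here are 45 genes of 8251 that the annotation of a mouse oligonucleotide array ties to probe sets naming 1 gene. They were chosen by symbol: names beginning with Sema, Plxn, Epha, Ephb, Efna, Efnb, Robo, Unc5 or Ntn, plus Nrp1, Nrp2, Slit1, Slit2, Slit3 and Dcc. The choice gave 16 semaphorins, 5 plexins, the neuropilin Nrp1, 8 ephrins and 9 Eph receptors. It also gave the netrin Ntn1 with its receptors Dcc and Unc5c, Robo1 and Robo3 of the Robo family, and Unc50. Unc50 was matched only by its spelling and is not a netrin receptor, which leaves 44 guidance genes. Counts below keep it, as the rule does, unless stated. Nrp2 and the Slits were named by no probe set in the annotation used here. The series measured RNA from amygdala and hippocampus on 48 arrays of 1 colour, 1 array per sample. Amygdala had 6 FC, 6 CS and 10 NH arrays, and hippocampus had 8 FC, 8 CS and 10 NH arrays. The labels do not spell out the arms. From the title, which concerns associative and nonassociative learning, FC was read as fear conditioning, CS as the conditioned stimulus alone and NH as naive animals in the home cage. Strain, sex, age and time of collection were not stated in the labels. Nothing in the labels says that each array is a separate animal, so the p-values reflect spread between arrays, which may be technical. The numbers in the amygdala titles can be read as pairs of hippocampus numbers, so amygdala samples may pool animals and the tissues may share animals, and no such link entered a fit.

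Semaphorins bind plexins, directly or with a neuropilin as co-receptor, and ephrins bind Eph receptors on a neighbouring cell. Netrins act through Dcc and the Unc5 receptors, and Slits through Robo receptors. These pairs steer growing axons in development by changing the actin and microtubule skeleton of the growth cone. In the adult forebrain they remain expressed and are known for roles at dendritic spines, in the contact of astrocytes with synapses and in layered fibre systems such as those of the hippocampus.

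The median deposited intensity of an array lay between 52.3 and 56.1 in amygdala and between 76.5 and 80.8 in hippocampus. The tissues therefore appear to have been normalized separately, and a level is compared between them only by its within-array percentile, the rank of a probe set among the 12422 non-control probe sets of the same array on a scale of 0 to 100. Arrays were processed in 7 batches, per the labels, and each batch held 1 tissue, so tissue and processing batch cannot be told apart. The labelled tissues were set against marker genes. Neurod6, a transcription factor of hippocampal pyramidal cells, averaged a percentile of 35.0 in amygdala and 82.2 in hippocampus, and Tac2, a neuropeptide gene of the amygdala, averaged 78.0 in amygdala and 61.2 in hippocampus. Of 8 measured hippocampal marker genes 6 were lower in amygdala, while Calb1 and Wfs1 were higher there, and of 5 measured amygdala and piriform markers 3 were higher in amygdala, while Dkk3 and Rspo2 were lower. Correlations between arrays of a tissue ran from 0.987 to 0.998 in amygdala and from 0.982 to 0.999 in hippocampus. By its median correlation with the other arrays, the lowest in hippocampus were 3 arrays of batch 4, and results that rest on them are also given without them. They were NH replicate 100 (0.9897), FC replicate 113 (0.9902) and CS replicate 109 (0.9925). The last did not stand apart, since CS replicate 39 of batch 5 had 0.9926. The choroid plexus markers, averaged per array, lay between 30.7 and 33.5 in amygdala and between 44.8 and 78.3 in hippocampus, with the highest value in CS replicate 109.

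The guidance genes covered nearly the whole range of signal. Their median percentile, taken with the brightest probe set of each gene, was 59.0 in amygdala and 63.7 in hippocampus, against 58.0 and 58.1 over all genes. In each tissue 31 of the 45 genes lay above the middle of the array and 11 fell among the 40% of probe sets with the lowest means, which were left out of the comparisons between arms. Just inside that limit stood Robo1 in amygdala and Efnb1 in hippocampus, and just outside it Sema3b in amygdala and Robo1 in hippocampus. Signals of different probe sets are not comparable as amounts of RNA, so the order below is one of probe signal only. Among ephrins and Eph receptors the brightest were Efnb3, a transmembrane ephrin known as a midline barrier for Epha4-bearing axons, at 95.8 ± 0.604 in amygdala and 94.2 ± 0.597 in hippocampus, and Efna3, a membrane-anchored ligand found on hippocampal astrocytes, at 94.3 ± 0.755 in amygdala and 93.8 ± 1.17 in hippocampus (SD, n = 22 and 26 arrays). The dimmest was Efna5, a ligand of topographic map formation, at 4.31 in amygdala and 3.13 in hippocampus. In the semaphorin system, Sema4f, a transmembrane semaphorin found at glutamatergic synapses, stood at 88.7 in amygdala and 87.4 in hippocampus. The netrin receptor Unc5c stood at 77.6 in amygdala and 79.2 in hippocampus, above Ntn1 at 59.0 and 58.5 and Dcc at 56.8 and 56.2 in the same order of tissues. Robo1 lay at 40.2 in amygdala and 39.4 in hippocampus, and Robo3, a receptor of commissural axons, at 27.9 and 30.1. Dcc, Ntn1 and Robo1 did not pass the test between tissues, with 95% intervals of the difference from -1.49 to 3.54, from -0.92 to 1.93 and from -1.77 to 3.13 percentile points.

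The comparison of tissues asked where in the ranking of each tissue the guidance genes lie. Among guidance genes with the same brightest probe set in both tissues, the largest differences in either direction were in partners of the same pathways. Sema3e and Nrp1 ranked far lower in amygdala. By contrast, Plxnd1, the receptor of Sema3e, and Sema3a, a ligand that uses Nrp1, ranked higher there. Among the Eph receptors with the same brightest probe set in both tissues, 4 of 8 ranked lower in amygdala and none higher. Ephb6, outside that group, had probe sets that passed in opposite directions. Percentiles were compared with limma, with batch as a random block and Benjamini-Hochberg adjustment over all 12422 probe sets at 0.05. Of the 43 guidance genes whose brightest probe set was the same in both tissues, 12 were higher in amygdala, against a background of 23.2% of 8171 genes, and 11 were lower, against 21.1%, while 20 did not pass. Without Unc50 there were 42 genes, of which 12 were higher and 10 lower. The shares of called guidance genes were thus near the background in both directions. The median size of the difference was 1.82 percentile points, against 1.69 over all genes. In 4 genes every amygdala array lay above every hippocampus array, against 2.78% of all genes, and in 6 every hippocampus array lay above every amygdala array, against 2.24%. By role, the counts of higher and lower calls in amygdala were 6 and 2 of 15 semaphorins, 3 and 0 of 5 plexins, 0 and 1 for Nrp1, 3 and 1 of 8 ephrins, 0 and 4 of 8 Eph receptors, 0 and 1 of the 3 netrin genes, 0 and 1 of the 2 Robo genes, and 0 and 1 for Unc50. In a bulk sample, fewer cells of a type and less RNA per cell cannot be told apart.

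**Figure D1:**
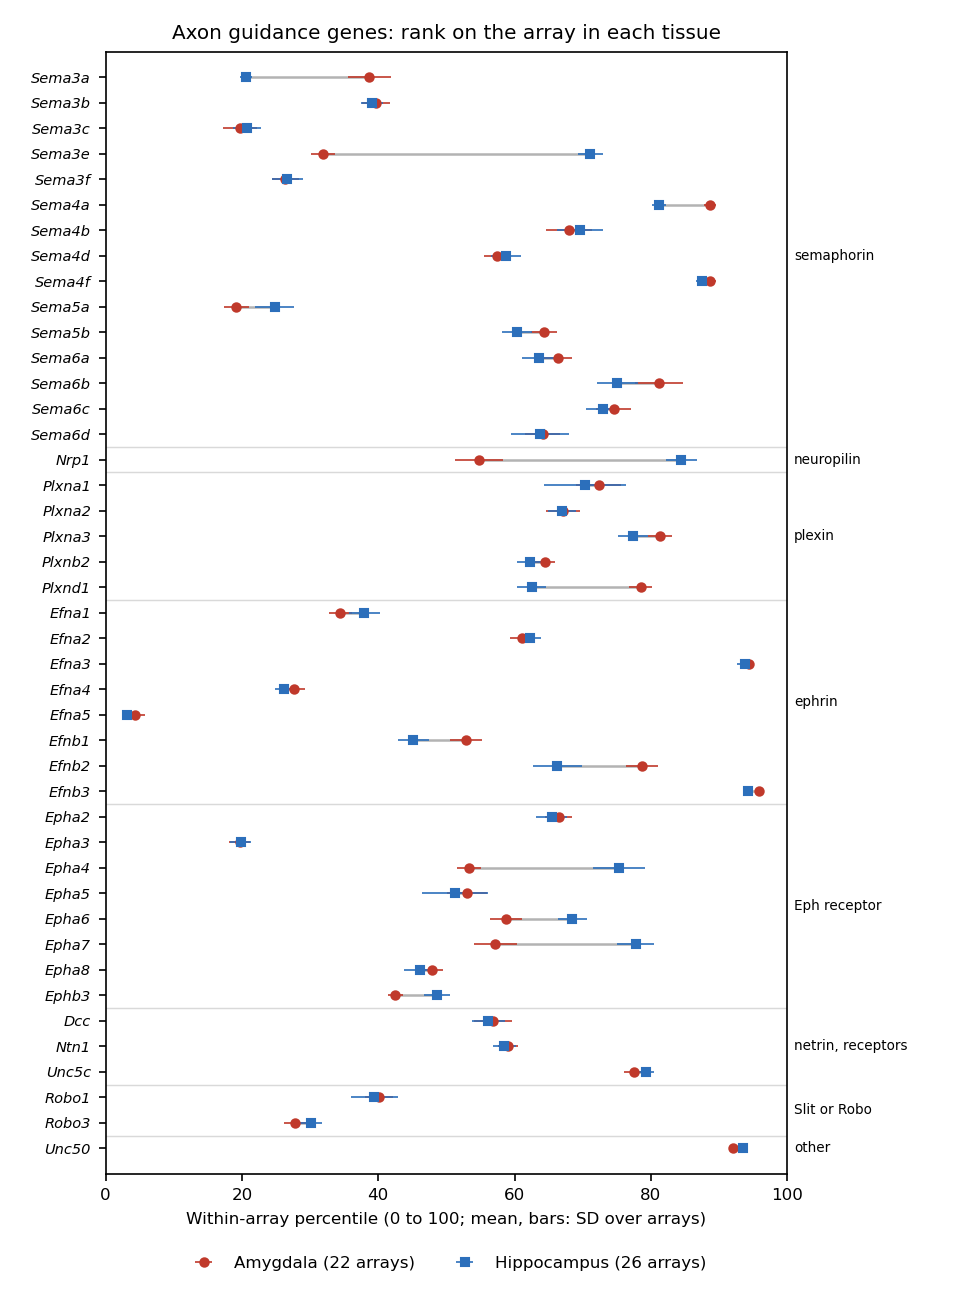
Mean within-array percentile of the 43 genes with the same brightest probe set in both tissues, by role (red circles: 22 amygdala arrays; blue squares: 26 hippocampus arrays; bars: SD). The longest gaps are those of Sema3e, Nrp1, Epha4 and Epha7, which lie to the left in amygdala, and of Sema3a and Plxnd1, which lie to the right; most other genes nearly coincide.

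Sema3e, a secreted semaphorin that binds Plxnd1 without a neuropilin, had percentiles of 26.5, 32.1 and 34.8 in amygdala (lowest, median and highest) and of 66.0, 71.0 and 74.7 in hippocampus. The ranges were more than 30 points apart, and in amygdala the gene lay below the limit for the comparisons between arms. The difference was -39.3 ± 0.896 points (SE; limma adjusted p = 4.02e-34), the most negative among the guidance genes with the same brightest probe set in both tissues. By arm it was -39.8 in FC, -39.1 in CS and -38.9 in NH arrays. Nrp1, the co-receptor of Sema3a that also binds vascular growth factor, had 48.7, 55.1 and 61.3 in amygdala and 79.7, 84.6 and 87.5 in hippocampus. No amygdala array reached the hippocampus range, the difference was -29.5 ± 1.35 points (SE; limma adjusted p = 1.02e-22), and a second probe set of Nrp1 gave -48.1 points, again with no overlap. Vessels express Nrp1, and of 6 measured endothelial markers Cdh5 was higher in amygdala (3.55 points) while Kdr (-2.13) and Pecam1 (-3.78) were lower, all with overlapping arrays. Their mean over the 6 genes lay between 51.0 and 53.5 in amygdala arrays and between 51.2 and 54.4 in hippocampus arrays, and their part in the Nrp1 difference was not tested.

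The 4 Eph receptors with the same brightest probe set in both tissues that differed were all lower in amygdala. Epha4, which binds ephrins of both classes and is known from dendritic spines of hippocampal pyramidal cells, had percentiles of 48.4, 53.7 and 55.7 in amygdala and of 63.2, 76.1 and 80.5 in hippocampus. The lowest hippocampus array, NH replicate 100, is among the 3 that correlated least with the others, and it still lay above every amygdala array. The difference was -22.5 ± 1.32 points (SE; limma adjusted p = 7.32e-19), and -23.3 points without those 3 arrays. Epha7, a receptor for ephrins of class A, had 52.5, 56.2 and 62.8 in amygdala and 73.7, 77.3 and 83.0 in hippocampus, a difference of -20.6 ± 1.28 points (SE; limma adjusted p = 5.59e-18). Epha6, of the same class, averaged 58.7 ± 2.38 in amygdala and 68.5 ± 2.12 in hippocampus (SD), and Ephb3, a receptor for ephrins of class B, averaged 42.5 ± 1.12 in amygdala and 48.6 ± 1.95 in hippocampus (SD). Their differences were -9.61 points for Epha6 (limma adjusted p = 6.03e-11) and -5.90 points for Ephb3 (limma adjusted p = 1.92e-09), and neither gene's arrays overlapped between tissues. Second, dimmer probe sets gave smaller differences in the same direction, -4.73 points for Epha4 and -3.18 points for Epha7. Epha2, Epha3, Epha5 and Epha8 did not pass the test, and their differences lay between -0.353 and 1.82 points.

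Plxnd1 and 3 ligands made up the guidance genes whose amygdala arrays all lay above the hippocampus arrays. Sema3a, the secreted semaphorin known for collapsing growth cones, had percentiles of 33.1, 38.8 and 45.1 in amygdala and of 18.9, 20.6 and 22.5 in hippocampus, and it lay under the limit for the comparisons between arms in both tissues. Its difference was 18.0 ± 0.971 points (SE; limma adjusted p = 4.17e-20). Plxnd1 had 75.8, 78.4 and 84.2 in amygdala and 58.9, 62.7 and 67.3 in hippocampus, a difference of 15.9 ± 0.860 points (SE; limma adjusted p = 4.4e-20). Plxnd1 thus ranked high where its ligand Sema3e ranked low, in all 3 arms: its difference was 15.6 points in FC, 18.4 in CS and 14.6 in NH arrays. Efnb2, a transmembrane ephrin of neurons and arteries, had 74.4, 78.3 and 82.9 in amygdala and 54.8, 66.9 and 70.9 in hippocampus. The difference of Efnb2 was 12.2 ± 1.48 points (SE; limma adjusted p = 3.91e-09), and 12.1 points without the 3 arrays of low correlation. The hippocampus arrays alone spanned more than that, and the lowest of them was FC replicate 113. Sema4a, a transmembrane semaphorin studied chiefly in immune cells, had 87.0, 88.8 and 89.9 in amygdala and 78.7, 81.3 and 82.8 in hippocampus, a difference of 7.54 ± 0.434 points (SE; limma adjusted p = 4.03e-19). A dim second set of Sema4a gave -0.97 points and did not pass.

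**Figure D2:**
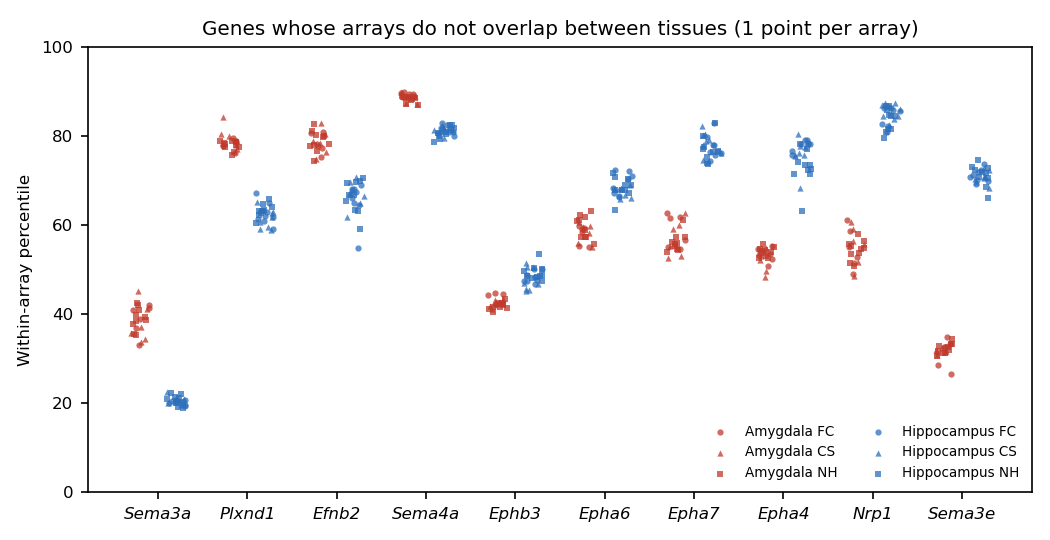
Within-array percentile of the 10 guidance genes whose arrays do not overlap between tissues, 1 point per array (red: amygdala; blue: hippocampus; circles FC, triangles CS, squares NH). From left to right, the first 4 genes are higher in every amygdala array and the last 6 in every hippocampus array, and the arms are mixed within each cloud.

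In the remaining calls the arrays of the tissues overlapped. Efnb1, a class B ephrin, averaged 52.9 in amygdala and 45.1 in hippocampus, 7.80 points apart (limma adjusted p = 1.58e-07), and Sema6b, a transmembrane semaphorin that binds plexins of class A, averaged 81.2 in amygdala and 75.1 in hippocampus, 6.33 points apart (limma adjusted p = 0.000129). Sema5b, Plxna3, Sema6a, Plxnb2, Efnb3 and Sema4f were higher in amygdala by between 1.27 and 4.05 points. In the other direction, Sema5a, a semaphorin with thrombospondin repeats, averaged 19.1 in amygdala and 24.8 in hippocampus, a difference of -6.03 points (limma adjusted p = 2.11e-05). Efna1, Robo3, Unc5c and Unc50 were lower in amygdala, with differences from -3.51 to -1.44 points. Plxna2, a receptor of Sema6a, averaged 67.1 in amygdala and 67.0 in hippocampus, with a 95% interval of the difference from -2.23 to 2.20 points.

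In 2 genes the choice of probe set decided the result. Sema7a, a semaphorin anchored in the membrane by a lipid, had a set, its brightest in hippocampus, with percentiles of 33.5, 35.8 and 39.99 in amygdala and of 67.5, 71.3 and 75.2 in hippocampus, a difference of -35.5 points (limma adjusted p = 9.14e-34). Its other set, the brighter in amygdala, averaged 62.4 in amygdala and 61.1 in hippocampus and did not pass (difference 1.16 points; limma adjusted p = 0.538). Ephb6, an Eph receptor without kinase activity, had sets that passed in opposite directions, the brighter in hippocampus at -8.18 points (limma adjusted p = 3.92e-08) and the brighter in amygdala at 4.27 points (limma adjusted p = 0.0357). Which transcripts each set detects is not given in the sources used here, so neither gene has a settled direction between the tissues.

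The stretches around the annotated starts of the 3 guidance genes with the most negative differences and of the 2 with the most positive are shown. They were picked among guidance genes with the same brightest probe set in both tissues, because these hold both ligand and receptor partners. Each runs from 250 bases before to 50 after the start, 5′ to 3′ on the gene's strand, from RefSeq on GRCm38.p6. Capitals mark matches on either strand to the GC box GGGCGG, the E-box CAGNTG or the cyclic AMP response half-site TGACG.
Sema3e: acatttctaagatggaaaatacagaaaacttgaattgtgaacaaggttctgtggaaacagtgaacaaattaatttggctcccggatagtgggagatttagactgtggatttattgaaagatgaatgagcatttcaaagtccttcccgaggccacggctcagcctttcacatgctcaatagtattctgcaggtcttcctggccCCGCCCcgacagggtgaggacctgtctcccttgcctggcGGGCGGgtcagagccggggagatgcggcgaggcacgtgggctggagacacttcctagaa
Nrp1: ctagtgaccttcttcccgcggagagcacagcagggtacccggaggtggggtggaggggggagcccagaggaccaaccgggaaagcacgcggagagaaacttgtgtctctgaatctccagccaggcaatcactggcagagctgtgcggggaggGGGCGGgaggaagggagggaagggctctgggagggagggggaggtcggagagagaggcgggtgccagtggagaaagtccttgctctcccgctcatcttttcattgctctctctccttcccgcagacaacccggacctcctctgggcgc
Epha4: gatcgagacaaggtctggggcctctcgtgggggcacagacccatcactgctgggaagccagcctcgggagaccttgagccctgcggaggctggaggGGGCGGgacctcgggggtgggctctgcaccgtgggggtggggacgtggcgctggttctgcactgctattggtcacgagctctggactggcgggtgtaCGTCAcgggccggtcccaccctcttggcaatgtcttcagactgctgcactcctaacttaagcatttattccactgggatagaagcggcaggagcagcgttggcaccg
Plxnd1: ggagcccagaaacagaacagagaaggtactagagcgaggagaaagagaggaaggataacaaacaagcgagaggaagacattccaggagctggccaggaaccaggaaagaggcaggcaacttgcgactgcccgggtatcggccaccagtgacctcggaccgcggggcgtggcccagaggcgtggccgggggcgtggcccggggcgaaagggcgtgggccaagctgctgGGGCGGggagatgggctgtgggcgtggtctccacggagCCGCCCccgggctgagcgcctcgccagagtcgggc
Sema3a: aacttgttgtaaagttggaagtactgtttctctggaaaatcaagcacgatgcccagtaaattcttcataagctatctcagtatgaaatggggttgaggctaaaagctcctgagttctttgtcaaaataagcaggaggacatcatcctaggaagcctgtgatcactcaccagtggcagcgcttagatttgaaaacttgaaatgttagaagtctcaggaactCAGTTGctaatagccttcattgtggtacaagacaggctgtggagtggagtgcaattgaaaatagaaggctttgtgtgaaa
The windows are chr5:14025026-14025325 (plus strand) for Sema3e, chr8:128358823-128359122 (plus) for Nrp1, chr1:77515039-77515338 (minus) for Epha4, chr6:115994956-115995255 (minus) for Plxnd1 and chr5:13396534-13396833 (plus) for Sema3a. The GC box occurred in 35.7% of the 32851 windows of this length in the RefSeq table, the E-box in 51.4% and the half-site in 20.8%. The windows of Sema3e and Plxnd1 each held 2 GC boxes, those of Nrp1 and Epha4 held 1 each, Epha4 also held 1 half-site, and Sema3a held 1 E-box and no GC box. The GC content was 41.3% for Sema3a, 50.7% for Sema3e, 64% for both Nrp1 and Epha4, and 67% for Plxnd1. Whether the motif matches bear on the differences between tissues was not tested.

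Other genes of these pathways were compared in the same way. Of 54 listed genes that carry guidance signals inside the cell, 34 were measured, of which 11 were higher in amygdala (background 23.2%) and 7 lower (21.1%), with a median difference of 0.14 points (0.0062 over all genes). Gap43, a growth cone protein, averaged 97.2 in amygdala and 92.3 in hippocampus (limma adjusted p = 4.22e-12). Kalrn, a guanine nucleotide exchange factor at spines, averaged 89.0 in amygdala and 96.7 in hippocampus (limma adjusted p = 3.62e-17), and the adaptor Nck1 averaged 4.14 in amygdala and 8.26 in hippocampus (limma adjusted p = 2.57e-08). Of 44 further guidance cues and receptors, 28 were compared, of which 13 were higher in amygdala (background 23.2%) and 6 lower (21.1%), with a median of 0.67 points. Ptpro, a receptor tyrosine phosphatase, averaged 83.5 in amygdala and 59.8 in hippocampus, 23.8 points apart (limma adjusted p = 2.46e-19), and Ptprf, another, averaged 76.6 in amygdala and 66.5 in hippocampus (limma adjusted p = 7.84e-12). The chemokine Cxcl12 averaged 62.7 in amygdala and 70.3 in hippocampus (limma adjusted p = 1.39e-08), and the teneurin Tenm2 averaged 64.8 in amygdala and 71.7 in hippocampus (limma adjusted p = 1.75e-05).

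Markers of several cell types moved with the tissue, and their part in the results for guidance genes was not tested. The 7 measured oligodendrocyte markers averaged between 64.5 and 69.1 in amygdala arrays and between 74.7 and 78.3 in hippocampus arrays, and 5 of them were lower in amygdala without overlap. Of the 3 measured choroid plexus markers 2 were lower in amygdala without overlap, with the defining gene Ttr at 18.8 in amygdala and 53.4 in hippocampus. The 4 measured striatal markers averaged between 51.5 and 56.0 in amygdala and between 40.7 and 44.4 in hippocampus. Of these, Penk and Tac1 were higher in every amygdala array, while Drd2 (1.10 points) and Rgs9 (0.75 points) did not pass. Averages of the astrocyte, microglia, blood and endothelium markers overlapped between the tissues, though single markers were called. Of 7 measured astrocyte markers, Aqp4 (-11.8 points), Gfap (-5.29) and Gja1 (-0.46) were lower in amygdala and Slc1a2 (2.93) was higher. Of 8 microglia markers 2 were higher and 2 lower, and of 6 blood markers 2 were higher. An intensity has no true zero, so no marker can be called absent.

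The comparisons between arms asked whether guidance transcripts differed after conditioning or stimulus exposure. In amygdala none of the 34 tested guidance genes passed in the limma fit with batch as a block. Every 95% interval lay within 1.25-fold in either direction. In FC against NH arrays 0 guidance genes passed, against a background of 0.0939% of 7453 probe sets; in CS against NH 0 passed, against 0.0134%; and in FC against CS 0 passed, against 0%. At an unadjusted p under 0.05 there was 1 guidance gene in FC against NH and 0 in the other comparisons, among 384, 292 and 92 probe sets of 7453. Median log2 differences were -0.02, -0.0056 and 0.002 in the 3 comparisons, against 0.01, 0.007 and 0.002 over all probe sets tested. The log2 differences ran from -0.10 to 0.11 in FC minus NH, from -0.13 to 0.13 in CS minus NH and from -0.11 to 0.11 in FC minus CS. The 11 dim genes left out of the test lay between -0.12 and 0.11 in all 3 comparisons.

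Sema4a had the smallest unadjusted p of the 34 tested genes in amygdala. Its log2 intensity was 7.99, 8.10 and 8.15 in FC arrays (lowest, median and highest), 7.86, 8.03 and 8.09 in CS arrays and 7.81, 7.96 and 8.03 in NH arrays. The highest values were in FC arrays, but the ranges of the arms overlapped. FC minus NH was 0.11 ± 0.050 (SE; 95% interval 0.004 to 0.212; limma adjusted p = 0.894), 0.10 within batch 2 and 0.15 within batch 3. Batch 3 held 2 FC arrays and 1 NH array, so its value rests on a single NH array. Weighting the arrays by their quality took this value past the threshold (0.12, limma adjusted p = 0.0354) along with 911 probe sets in all, and averaging both Sema4a sets gave -0.01. Other guidance genes with the smallest p in each direction gave log2 differences of 0.10 ± 0.066 for Epha7 and 0.06 ± 0.055 for Ephb3 and of -0.07 ± 0.048 for Unc5c, -0.10 ± 0.072 for Sema4b and -0.05 ± 0.046 for Sema4d in FC minus NH. In CS minus NH they were 0.13 ± 0.066 for Plxnd1, 0.10 ± 0.068 for Unc50 and 0.07 ± 0.068 for Epha7, and -0.12 ± 0.068 for Sema6c, -0.10 ± 0.058 for Sema6a and -0.12 ± 0.074 for Sema4b. In FC minus CS they were 0.09 ± 0.046 for Sema4a, 0.09 ± 0.052 for Sema6a and 0.11 ± 0.077 for Plxna1, and -0.11 ± 0.058 for Plxnd1, -0.06 ± 0.048 for Ntn1 and -0.07 ± 0.060 for Unc50. Sema4b, a transmembrane semaphorin with 3 probe sets, shows how far sets of a gene can part: FC minus NH was -0.10 and -0.12 in a pair of them and 0.17 in the dimmest.

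Most of these amygdala values, none of which passed, moved with single arrays: leaving out 1 array changed 14 of the 18 by over 1.5 times, through 8 arrays. Without CS replicate 21523, CS minus NH was 0.066 for Plxnd1, and FC minus CS was -0.047 for Plxnd1 and -0.031 for Ntn1. Without CS replicate 23139, CS minus NH was 0.033 for Epha7, -0.068 for Sema6c, -0.067 for Sema6a and -0.051 for Sema4b, and FC minus CS was 0.054 for Sema6a and 0.059 for Plxna1. In both cases the values lay nearer 0 than with all arrays. Leaving out FC replicate 21927 gave 0.157 for Epha7 and 0.030 for Ephb3 in FC minus NH, and -0.090 for Ntn1 and -0.020 for Unc50 in FC minus CS. Plxna1 in FC minus CS was 0.180 without CS replicate 251101. The NH arrays moved Epha7, Unc5c and Sema4d. Epha7 was 0.058 in FC minus NH and 0.026 in CS minus NH without NH replicate 29798, and 0.114 in CS minus NH without NH replicate 299141. In FC minus NH, Unc5c was -0.040 without NH replicate 299141 and -0.111 without NH replicate 3142153, and Sema4d was -0.029 without NH replicate 28892, -0.028 without 299141 and -0.078 without 3142153.

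**Figure D3:**
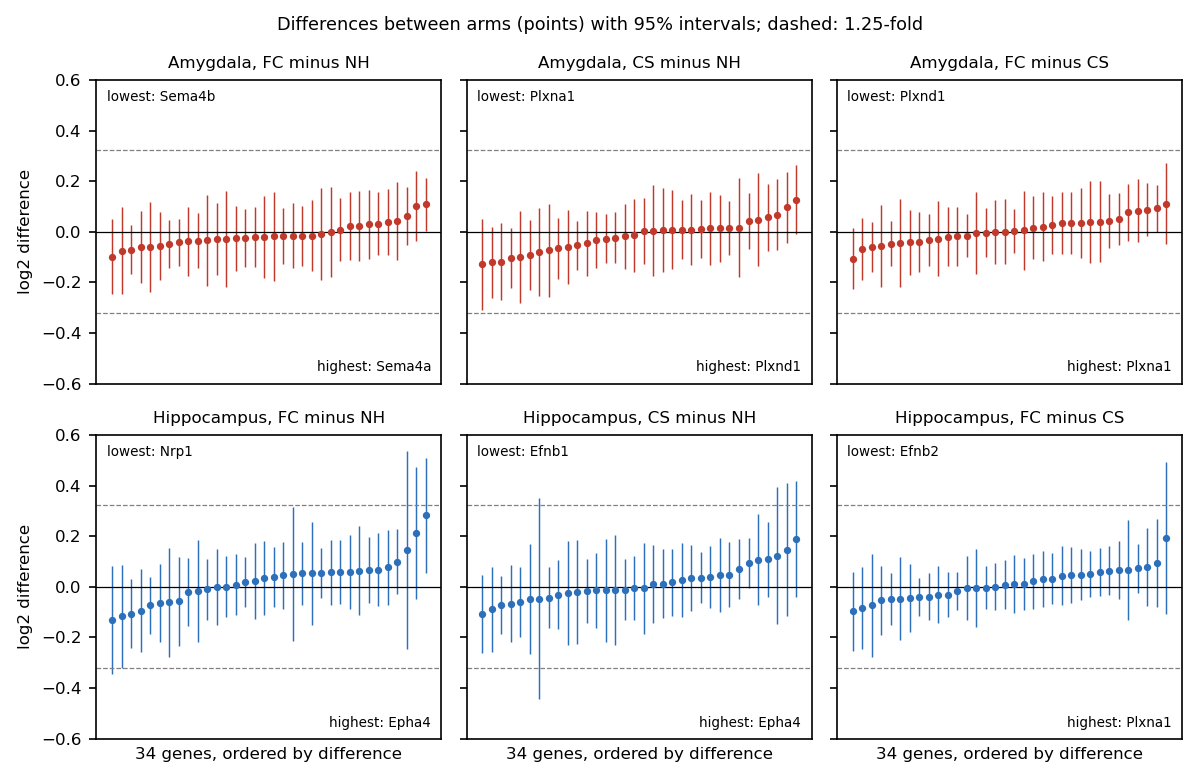
Log2 differences between arms for the 34 guidance genes tested in each tissue, ordered by size, with 95% intervals (red: amygdala; blue: hippocampus; dashed lines: 1.25-fold either way). All amygdala intervals lie between the dashed lines; in hippocampus a few intervals, among them those of Epha4, Sema6d and Plxna1, cross the upper line, and no gene passed the adjusted threshold in any panel.

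In hippocampus, too, no guidance gene passed. FC against NH gave 0 of 34 (background 0.0134% of 7453 probe sets), CS against NH gave 0 (0.0134%) and FC against CS gave 0 (0%), again in the limma fit with batch as a block. At an unadjusted p under 0.05 there was 1 guidance gene in FC against NH and 0 in the other comparisons, among 169, 108 and 57 probe sets. Median log2 differences were 0.04, -0.005 and 0.01, against -0.0005, 0.0009 and 0.0003 over all probe sets. The 95% interval lay within 1.25-fold for 30, 30 and 33 of the 34 genes and within 1.5-fold for all of them. The exceptions to the narrower bound, named after their values were seen, were Epha4, Sema6d, Plxna1 and Nrp1 in FC minus NH, Epha4, Epha5, Sema6d and Plxna1 in CS minus NH, and Plxna1 in FC minus CS.

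Epha4 had the smallest unadjusted p of the 34 tested genes in hippocampus. Its log2 intensity was 7.55, 7.70 and 7.76 in FC arrays (lowest, median and highest), 7.18, 7.55 and 7.84 in CS arrays and 6.92, 7.40 and 7.69 in NH arrays. The FC arrays lay within the upper part of the NH range or above it, and CS and NH overlapped widely. FC minus NH was 0.28 ± 0.111 (SE; 95% interval 0.06 to 0.51; limma unadjusted p = 0.0168, adjusted p = 0.9999), 0.40 within batch 4 and 0.24 within batch 6. Without NH replicate 100 the difference was 0.11, without NH replicate 111 it was 0.42, and without the 3 arrays of low correlation it was 0.15. CS minus NH was 0.19 ± 0.112, and 0.005 without NH replicate 100. The second Epha4 set gave 0.05 in FC minus NH.

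Sema6d, a transmembrane semaphorin that binds Plxna1, had log2 intensities of 6.88, 6.96 and 7.20 in FC arrays, 6.47, 6.94 and 7.23 in CS arrays and 6.27, 6.92 and 7.12 in NH arrays. Each arm's median lay close to the others, and the lowest CS and NH values came from CS replicate 109 and NH replicate 100. FC minus NH was 0.21 ± 0.127 (SE), 0.49 within batch 4, -0.01 within batch 6 and 0.008 without NH replicate 100. Plxna1 had the widest interval in all 3 comparisons: FC minus CS was 0.19 ± 0.146, 0.62 within batch 4, 0.02 within batch 5 and 0.03 within batch 6. Among the remaining genes with the smallest p in each direction, FC minus NH was 0.10 ± 0.062 for Plxna2, and -0.11 ± 0.067 for Unc50, -0.07 ± 0.055 for Unc5c and -0.13 ± 0.104 for Nrp1. CS minus NH was 0.09 ± 0.048 for Sema4f and 0.11 ± 0.073 for Epha2, and -0.11 ± 0.076 for Efnb1, -0.07 ± 0.056 for Unc5c and -0.09 ± 0.081 for Dcc. FC minus CS was 0.07 ± 0.047 for Epha6 and 0.06 ± 0.047 for Plxna2, and -0.10 ± 0.076 for Efnb2, -0.04 ± 0.036 for Sema4f and -0.08 ± 0.079 for Nrp1. Among the 11 genes under the limit of signal, Sema5a gave 0.31 ± 0.110 in FC minus NH (limma unadjusted p = 0.00869, adjusted p = 0.9999) and 0.25 ± 0.111 in CS minus NH. Sema5a was singled out after its values were seen.

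In hippocampus, leaving out 1 array changed 16 of the 18 named values by over 1.5 times, through 9 arrays, and none had passed. Without FC replicate 113, FC minus CS was -0.035 for Efnb2, 0.101 for Plxna1 and -0.048 for Nrp1, and FC minus NH was -0.088 for Nrp1. Without CS replicate 109, FC minus CS was 0.038 for Plxna2, 0.116 for Plxna1 and -0.046 for Nrp1, and CS minus NH was -0.060 for Dcc. Without NH replicate 100, FC minus NH was -0.070 for Unc50 and -0.063 for Nrp1. The values for Efnb2, Plxna1 and Nrp1 thus lay nearer 0 without an array of low correlation. With all 3 such arrays left out, FC minus CS was -0.034 for Efnb2, 0.081 for Plxna1 and -0.028 for Nrp1, and FC minus NH was -0.050 for Nrp1, 0.018 for Sema6d and -0.058 for Unc50. Other arrays moved other genes. Without CS replicate 75, CS minus NH was 0.032 for Epha2, -0.175 for Efnb1 and -0.041 for Unc5c, and FC minus CS was 0.042 for Epha6. Without NH replicate 111, CS minus NH was 0.049 for Sema4f, 0.336 for Epha4 and -0.043 for Dcc, and without CS replicate 85 it was 0.124 for Epha4. Plxna2 was 0.062 in FC minus NH and 0.034 in FC minus CS without FC replicate 89, and 0.064 in FC minus NH without NH replicate 82, and Nrp1 was -0.049 in FC minus CS without FC replicate 35.

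**Figure D4:**
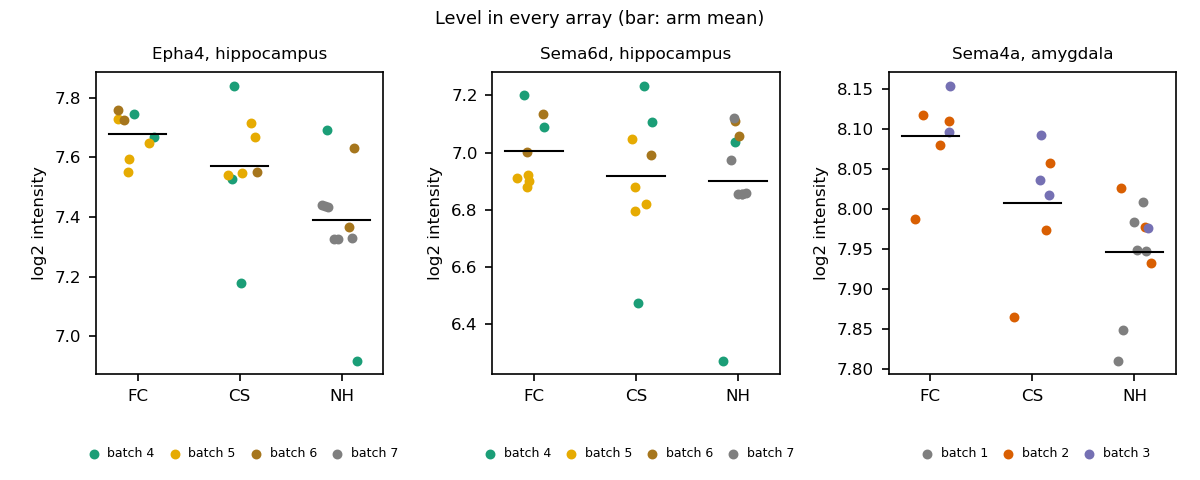
Log2 intensity in every array, by arm, of Epha4 and Sema6d in hippocampus and of Sema4a in amygdala (points coloured by processing batch; bars: arm means; each panel has its own scale). For Epha4 and Sema6d the lowest NH point is the same array of batch 4, and for Sema4a the FC points reach 8.15 and the NH points 8.03 at most.

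The listed signalling genes and further guidance cues gave no call between arms either: 0 of 28 or 29 tested signalling genes and 0 of 24 or 22 tested cues passed in amygdala or hippocampus, in any of the 3 comparisons, by limma. At an unadjusted p under 0.05 there were 0 to 3 per list and comparison. Rhoa, the GTPase downstream of several repellent receptors, had the smallest p among them in hippocampus, with CS minus NH at 0.29 ± 0.062 (SE; limma adjusted p = 0.224) and FC minus NH at 0.22 ± 0.061. In amygdala Cdk5, a kinase of the Sema3a pathway, gave 0.15 ± 0.064 in FC minus NH and Dpysl2, which relays Sema3a signals to microtubules, gave -0.15 ± 0.061.

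Whether the arms differed by another amount in amygdala than in hippocampus was tested as the difference between the tissues' own contrasts for the 31 guidance genes past the limit of signal in both. None passed in any of the 3 contrasts by limma, and none of 7242 probe sets did (background 0% each). At an unadjusted p under 0.05 there were 248, 183 and 99 probe sets, with 1 guidance gene in each contrast. Epha4 gave -0.02 in amygdala and 0.28 in hippocampus for FC minus NH, a difference of -0.30 ± 0.129. Sema6c gave -0.12 in amygdala and 0.11 in hippocampus for CS minus NH, and Plxnd1 gave -0.11 and 0.06 for FC minus CS. The contrasts between tissues were not refitted with an array left out, but the within-tissue values of Epha4 and Plxnd1 moved with single arrays. The hippocampus value of Epha4 was 0.11 without NH replicate 100 and 0.42 without NH replicate 111. The amygdala value of Plxnd1 was -0.047 without CS replicate 21523 and -0.139 without CS replicate 251101. That of Sema6c in hippocampus was -0.02 within batch 4 and 0.43 within batch 6, which held 1 CS array.

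The spread between batch effects is the largest minus the smallest of them. It exceeded the size of every arm difference in 31 of 34 guidance genes in amygdala and in 32 of 34 in hippocampus. This count was not made over all probe sets, so it cannot be read as a trait of guidance genes. Their median spread was 0.19 in amygdala, against 0.15 over all probe sets tested, and 0.15 in hippocampus, against 0.16. A batch term passed for 12 of 34 guidance genes in amygdala, against a background of 26.2% of probe sets, and for 5 of 34 in hippocampus, against 25%. In amygdala, Sema6b averaged 7.12, 7.43 and 7.65 on the log2 scale in batches 1, 2 and 3, with a spread of 0.58 once arms were fitted (limma adjusted p = 0.00148), and Plxna1 averaged 6.69, 6.88 and 7.01, with a spread of 0.40 (limma adjusted p = 0.016). In hippocampus, Sema6b averaged 7.72, 7.42, 7.40 and 7.50 in batches 4 to 7, with a spread of 0.31 (limma adjusted p = 0.00695), and Nrp1 had the largest spread, 0.35, which did not pass (limma adjusted p = 0.129). Batches 1 and 7 held NH arrays only, so they hold no comparison of arms of their own.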

How the data were processed

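The deposited table gave each probe set of each array a linear intensity, which the authors had computed with RMA, an averaging method for the probes of a set, per the submitters' processing notes. The RMA version is not given in the sources used here. Deposited intensities were put on the log2 scale with no pseudocount. The table held 12488 probe sets, of which 66 array controls were left out, and 0 columns of other series. Probe sets were named from the platform annotation: 10833 named 1 gene, 396 several and 1193 none. For comparisons of arms the dimmest 40% by mean were dropped in each tissue, which left 7453 probe sets, and the brightest probe set stood for each gene. Arms were fitted within a tissue with limma 3.58.1 in R 4.3.3, with batch as a fixed block. Tissues were compared by within-array percentile with batch as a random block (consensus correlation 0.234). P-values were adjusted over all probe sets tested (Benjamini-Hochberg, 0.05), and the fits were tested on simulated data. The precision is limited by the number of arrays.

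Genes named with values were the members past the threshold and the 3 with the smallest p per direction in each comparison of arms, up to 8 per direction among genes without overlap between tissues, the brightest 2 and the dimmest per family, genes whose probe sets disagreed and the 2 with the largest batch spread per tissue. Members, lists and rule were chosen with earlier results of these data known. The values of 1 further gene that the rule names from the signalling list are not reported here. Alternatives covered the batch term, array weights, the filter, normalization, the probe set of a gene, single batches and left-out arrays.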

Additional observations from a re-analysis of the deposited data

Results flagged for a closer look

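In 8 of 75 groups of arrays tested among the guidance genes, the highest or lowest array stood apart from the rest by Dixon's criterion. Chance alone meets it in about 1 group in 20 when groups are not picked by their values. Every flagged gene was among those named for a small p between arms in the same tissue. That choice used the same arrays, so the count cannot be set against the chance rate. The 4 low values came from the 3 hippocampus arrays of batch 4 with the lowest correlations. Sema6d was 6.27 on the log2 scale in hippocampus NH replicate 100, with the next NH array at 6.85. Epha4 was 6.92 in the same array, with the next at 7.33, and 7.18 in CS replicate 109, with the next CS array at 7.53. Efnb2 was 6.56 in hippocampus FC replicate 113, with the next FC array at 6.97. Among highest values, Epha2 was 7.31 in hippocampus CS replicate 75, with the next at 7.10, and Unc50 was 9.32 in CS replicate 39, with the next at 9.10. In amygdala, Ntn1 was 6.30 in FC replicate 21927, with the next at 6.15, and Epha7 was 6.32 in NH replicate 299141, with the next at 6.12. The cause of these values was not tested.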

How the results depend on the processing

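No guidance gene was called between arms under the alternatives run, except Sema4a in amygdala FC minus NH with array weights (1 gene; 0.12, adjusted p = 0.0354), where calls over all probe sets numbered 911 instead of 7; they numbered 211 with no batch term. Leaving out in turn each array of the batches with more than 1 arm gave 0 called guidance genes in all 6 comparisons. This covered 16 arrays in amygdala and 20 in hippocampus, and the NH arrays of batches 1 and 7 were not left out. No paired analysis was possible because the arms of a tissue share no replicate numbers. The count called between tissues was 23 of 43 (44.3% over all genes), 22 with NH arrays only (35%), 28 with no block (64.6%), 18 with only batches 2, 3, 4 and 6 (29.5%), and 18 of 33 genes past the limit of signal (43.7%); the Ephb6 set that is brighter in amygdala did not pass with NH arrays only (4.02 points, adjusted p = 0.0872), and the Sema7a set that is brighter in amygdala was at -0.18 with only those 4 batches. With only batches of more than 1 arm, 5 instead of 12 guidance genes had a batch difference in amygdala. The share over all probe sets in that setting is not given here, so the drop cannot be read as a trait of guidance genes. Leaving out the 3 hippocampus arrays of low correlation, an alternative chosen after seeing the data, left 0 calls between arms and 23 between tissues (45.9% over all genes).

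Log2 differences below changed sign; none had passed the threshold. With no batch term, amygdala FC minus NH was 0.044 for Unc5c and 0.073 for Sema4d, amygdala CS minus NH 0.029 for Sema6c and 0.0030 for Sema6a, hippocampus FC minus NH 0.066 for Nrp1 and hippocampus CS minus NH 0.017 for Efnb1 and 0.0065 for Unc5c. With batch as a random block, amygdala FC minus NH was 0.0060 for Sema4d. With array weights, amygdala FC minus CS was 0.0064 for Unc50. With the mean over a gene's probe sets, Sema4a in amygdala was -0.013 in FC minus NH and -0.026 in FC minus CS. In batch 3 alone, which held 1 NH array, FC minus NH was 0.032 for Unc5c and 0.064 for Sema4d, and CS minus NH was -0.019 for Epha7. FC minus CS in that batch was 0.019 for Plxnd1 and 0.025 for Unc50. In batch 6 alone, which held 1 CS array, FC minus NH was -0.014 for Sema6d and 0.059 for Nrp1. CS minus NH in batch 6 was 0.084 for Efnb1 and 0.018 for Dcc, and FC minus CS was 0.028 for Efnb2, 0.027 for Sema4f and 0.19 for Nrp1. In batch 4 alone, FC minus CS was -0.022 for Epha6. The cause of these changes was not tested. Dim probe sets carry little signal over background, which limits what their differences can show.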
